A study of Mus musculus with 2 samples.

Results

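Metallothioneins are described here through 4 genes, Mt1, Mt2, Mt3 and Mtf1, chosen by symbol out of 55536 annotated genes quantified in the mouse cerebral cortex. The tissue was left cerebral cortex of 2 female B6CASTF1/J mice, 25 days old, which carry a CAST genome beside the C57BL/6 one. Total RNA, 300 ng a library, was sequenced together with ERCC spike-ins, synthetic RNAs added in known amounts. The libraries form 1 group, with no treated or mutant animals beside them, so the comparisons are between genes, between the 2 libraries and between 2 quantifications of each library. The labels give the tissues separate animal numbers but the same donor identifier. They were counted as separate animals, and if they are not, each SD (n = 2) measures preparation only.

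Metallothioneins are small proteins in which a large share of the residues are cysteines, whose sulfur atoms hold zinc and copper ions. Mt1 and Mt2 are found in most tissues, are induced by metals, glucocorticoids and stress, and in brain are known mainly from astrocytes. Mt3, also called growth inhibitory factor, is largely restricted to the nervous system, and Mt4 belongs to stratified epithelia. Mtf1 encodes the zinc-sensing transcription factor that binds metal response elements in the promoters of Mt1 and Mt2.

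The metallothionein genes lie side by side on the plus strand of chromosome 8 (mm10, GENCODE M21), in the order Mt4, Mt3, Mt2 and Mt1, over 43.131 kb. Mt3 (ENSMUSG00000031760.9) spans chr8:94152607-94154146, Mt2 (ENSMUSG00000031762.7) chr8:94172664-94173568 and Mt1 (ENSMUSG00000031765.8) chr8:94179082-94180327. Mt4 (ENSMUSG00000031757.7), the remaining gene of the cluster, spans chr8:94137197-94139031. Mtf1 (ENSMUSG00000028890.13) lies apart on the plus strand of chromosome 4 at chr4:124802104-124849800. The leading transcripts of the metallothioneins, each of 3 exons, are 549 nt (Mt1-201), 511 nt (Mt2-201) and 536 nt (Mt3-201) long, against 7554 nt for Mtf1-202.

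The coding sequences show how alike the paralogs are and why they are called cysteine-rich. They are printed from the GENCODE M21 transcripts of the reference genome, 5′ to 3′ on the plus strand, with each in-frame cysteine codon in capitals.
Mt1-201 coding sequence: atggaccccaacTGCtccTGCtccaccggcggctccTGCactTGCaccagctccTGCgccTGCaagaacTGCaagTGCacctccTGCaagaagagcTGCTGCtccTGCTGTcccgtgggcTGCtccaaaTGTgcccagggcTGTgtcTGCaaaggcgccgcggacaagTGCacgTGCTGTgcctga
Mt2-201 coding sequence: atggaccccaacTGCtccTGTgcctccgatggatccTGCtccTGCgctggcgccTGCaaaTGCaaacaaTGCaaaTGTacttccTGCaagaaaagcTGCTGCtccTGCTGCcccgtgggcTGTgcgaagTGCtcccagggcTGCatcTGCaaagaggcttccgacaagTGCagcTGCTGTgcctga
Mt3-201 coding sequence: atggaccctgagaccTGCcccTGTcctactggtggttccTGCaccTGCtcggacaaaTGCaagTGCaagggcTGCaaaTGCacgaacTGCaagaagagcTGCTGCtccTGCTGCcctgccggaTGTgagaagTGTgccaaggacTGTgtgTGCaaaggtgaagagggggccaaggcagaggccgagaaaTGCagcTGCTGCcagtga
Each holds 20 cysteine codons, out of 61 codons in Mt1, 61 in Mt2 and 68 in Mt3, stop codon not counted. Mtf1-202 has 19 cysteine codons among 675. Aligned bases were 79.6% identical between Mt1 and Mt2 with no gap, 73.7% between Mt3 and Mt1 and 75.3% between Mt3 and Mt2, and both alignments with Mt3 held 21 gap bases, its coding sequence being 207 nt against 186 nt in the others. Despite this likeness, no stretch of 31 bases in the transcripts of Mt1 or Mt3 occurred in a transcript of any other gene. For Mt2-201, 3 of its 481 such stretches also occurred on the same strand in Pip5k1a.

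Opposite-strand overlap touched the other members. Of the 481 stretches of 31 bases in Mt2-201, 267 (55.5%) occur on the opposite strand in the antisense gene Gm45774, which had 5 and 4 FASTQ-based counts and 2 and 1 alignment-based counts in replicates 1 and 2. In Mtf1-202, 270 of 7524 stretches (3.59%) occur on the opposite strand in 1110065P20Rik, which had 476 and 433 alignment-based counts. The labels name a spike-in profile for stranded libraries, but whether strand was used in counting is not given in the sources used here, so Mt2 and Mtf1 are less certain than Mt1 and Mt3 in these stretches.

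Upstream sequences were searched for the core of the metal response element, the letters TGCACNC or TGCGCNC on either strand. The sequences below are from RefSeq promoter windows (GRCm38.p6, plus strand) and run from 250 bases before the RefSeq start to the base before whichever of the RefSeq and GENCODE starts comes first, with cores in capitals. A core on the minus strand reads GNGTGCA or GNGCGCA here.
Mt1, chr8:94178839-94179081: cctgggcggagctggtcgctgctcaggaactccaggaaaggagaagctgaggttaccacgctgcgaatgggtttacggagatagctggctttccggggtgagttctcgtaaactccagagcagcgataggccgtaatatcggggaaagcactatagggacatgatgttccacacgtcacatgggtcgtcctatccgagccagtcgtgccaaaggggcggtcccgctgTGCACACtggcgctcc
Mt2, chr8:94172368-94172617: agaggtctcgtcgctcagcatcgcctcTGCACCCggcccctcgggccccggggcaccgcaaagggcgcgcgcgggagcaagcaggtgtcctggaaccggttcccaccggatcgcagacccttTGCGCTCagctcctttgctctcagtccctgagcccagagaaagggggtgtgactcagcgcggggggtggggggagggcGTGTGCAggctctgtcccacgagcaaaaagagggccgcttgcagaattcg
Mt3, chr8:94152357-94152606: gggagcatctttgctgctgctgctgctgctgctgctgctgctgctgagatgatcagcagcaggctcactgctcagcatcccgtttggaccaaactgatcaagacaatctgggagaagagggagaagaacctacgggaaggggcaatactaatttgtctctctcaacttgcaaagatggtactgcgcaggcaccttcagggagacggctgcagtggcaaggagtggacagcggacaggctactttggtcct
The Mt1 stretch holds 1 core, whose first base is at -23 from the RefSeq start, and the Mt2 stretch holds 3, at -223, -128 and -50. The Mt3 stretch holds none and, near its start, has GCT repeated 11 times in a row, where the longest such run was 2 copies upstream of Mt1 and 1 upstream of Mt2. In the full windows of 300 bases, which include 50 bases from the start onwards, Mt1 had 3 cores, Mt2 had 4, Mt3 had 1 and Mtf1 had none. Of 32851 such windows, 25.7% held at least 1 core, 1.97% at least 3 and 0.517% at least 4.

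Cores were also present between the start site and the start codon. From 250 bases before the RefSeq start to the base before the start codon, Mt1 had 5 cores in 472 bases, Mt2 had 7 in 480 and Mt3 had 3 in 443. No share over all genes was computed for this longer span, so whether these counts are unusual was not tested. Of these cores, 4 in Mt1, 3 in Mt2 and all 3 in Mt3 lay inside the annotated transcript. In the last 180 bases before the start codon, Mt2-201 and Mt3-201 each held 3 cores and Mt1-201 held 2, where 0.467% of 23977 transcripts held at least 3 and 3.02% at least 2. Mtf1-202 had none there. A match is a match of letters only, and no binding was measured.

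Each library came with 2 quantifications. One, called alignment-based here, gives expected counts and TPM (a level scaled to transcript length and to the library), and the other, called FASTQ-based, gives estimated counts and TPM of its own. Annotated genes held 31435395 and 27962850 FASTQ-based counts and 31191535 and 27079700 alignment-based counts in replicates 1 and 2. Here CPM are counts scaled to the library's total after its adjustment by the trimmed mean of M values (TMM). The limit that a count of 0 allows, 3 counts, came to 0.0968 and 0.110 CPM in the alignment-based tables. All 10 astrocyte markers and all 8 neuronal markers of the lists used were detected at 1 TPM in both libraries. The 9 choroid plexus and ependymal markers, 4 of them detected, summed to 105.8 alignment-based TPM in replicate 1, against 11.7 in replicate 2. Of this, transthyretin (Ttr) gave 96.03 and 4.79, and the other 8 summed to 9.81 and 6.95. Erythroid RNA was higher in replicate 1 (665 against 504 over 5 markers, all detected). Myelin RNA was lower in replicate 1 (1558 against 2454 over 8 markers, all detected). No marker of these lists was at 0 in both libraries.

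By TPM, Mt3 was the most abundant of the metallothioneins in each library and each quantification, followed by Mt1, Mt2 and Mtf1. Mt3 had 907 TPM in replicate 1 and 1049 TPM in replicate 2 in the FASTQ-based tables, and 395 TPM and 391 TPM in the alignment-based ones (393 ± 2.74, SD, n = 2). That placed it 88th by alignment-based TPM in both libraries among 12933 protein-coding genes detected at 1 TPM. Its alignment-based counts were 3571 in replicate 1 and 2966 in replicate 2. In bulk tissue, fewer cells of a type and less RNA per cell cannot be told apart, here and below.

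Mt1 stood next. It had 615 TPM in replicate 1 and 575 TPM in replicate 2 by the FASTQ-based tables, and 250.3 TPM and 247 TPM by the alignment-based ones (249 ± 2.01, SD, n = 2). Its alignment-based rank was 210 in replicate 1 and 217 in replicate 2, inside the top 2% of detected genes. Alignment-based counts were 2356 and 1956.

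Mt2 was lower and less even between the libraries. The FASTQ-based tables gave it 336 TPM in replicate 1 and 352 TPM in replicate 2, and the alignment-based ones 199 TPM and 172 TPM (186 ± 19.0, SD, n = 2). In neither quantification did its values overlap with those of Mt1. By alignment-based TPM it ranked 298 in replicate 1 and 402 in replicate 2, the widest shift of rank among the metallothioneins.

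Mtf1, the metal sensor, was near the middle of the detected genes. It had 25.3 TPM in replicate 1 and 19.9 TPM in replicate 2 by the FASTQ-based tables, and 13.0 TPM and 12.7 TPM by the alignment-based ones (12.8 ± 0.212, SD, n = 2). These alignment-based values lay at percentiles 44.3 and 42.1 of the detected genes. Mt4 had 0 counts in both libraries and both quantifications, where 3 counts would be 0.482 TPM in replicate 1 and 0.574 TPM in replicate 2.

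**Figure D1:**
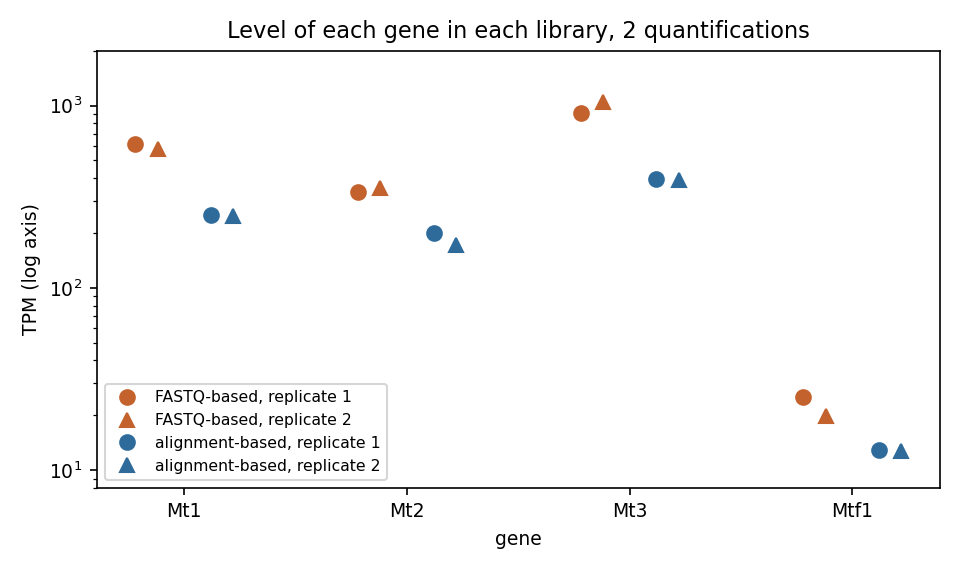
TPM (log axis) of Mt1, Mt2, Mt3 and Mtf1, with FASTQ-based values to the left of alignment-based values and a circle for replicate 1 and a triangle for replicate 2. Mt3 is highest and Mtf1 lowest in each of the 4 columns of values, and the alignment-based Mt3 points, 395 and 391 TPM, nearly coincide.

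Paralog ratios within a library remove the library's scale. Mt3 was above Mt1 by 1.64-fold in FASTQ-based TPM (log2 0.72 ± 0.22, SD, n = 2) and by 1.58-fold in alignment-based TPM (log2 0.66 ± 0.0016). The alignment-based ratio was 1.58 in both libraries, while the FASTQ-based one was 1.48 in replicate 1 and 1.83 in replicate 2. Mt3 was above Mt2 by 2.84-fold in FASTQ-based TPM (log2 1.51 ± 0.10) and by 2.12-fold in alignment-based TPM (log2 1.09 ± 0.14). Mt1 was above Mt2 by 1.73-fold in FASTQ-based TPM (log2 0.79 ± 0.12) and by 1.34-fold in alignment-based TPM (log2 0.43 ± 0.14). For both ratios over Mt2, and for Mt1 over Mtf1 given below, the difference between the quantifications exceeded the SD between the libraries in either quantification. For Mt3 over Mt1 it exceeded the alignment-based SD only. With 2 libraries an exact sign-flip test cannot go below p = 0.5, so none of these ratios was tested.

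As shares of the cluster's TPM, Mt3 made up 51.0 ± 3.02% by the FASTQ-based tables and 47.5 ± 1.03% by the alignment-based ones. Mt1 made up 31.1 ± 2.83% and 30.1 ± 0.62%, and Mt2 17.9 ± 0.19% and 22.4 ± 1.65% (all SD, n = 2). The share of Mt2 differed most between the quantifications. Mt1 exceeded the level of Mtf1 by 26.5-fold in FASTQ-based TPM (log2 4.73 ± 0.18) and 19.4-fold in alignment-based TPM (log2 4.28 ± 0.012). In CPM, where the long Mtf1 transcript gathers more reads per molecule, Mt1 was above Mtf1 by 1.57-fold FASTQ-based and 2.11-fold alignment-based. By the same measure Mt2 was below Mtf1 FASTQ-based (28.9 and 31.3 CPM in replicates 1 and 2, against 41.2 and 37.1 for Mtf1) and above it alignment-based (47.1 and 39.0, against 36.6 and 33.4), so the last step of the order holds per length and not by FASTQ-based counts.

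Between the libraries, differences were small in the alignment-based counts. CPM scaled by the trimmed mean of M values (TMM) in replicate 1 over replicate 2 gave a ratio of 1.06 for Mt3 (exact 95% interval 1.01 to 1.11), 1.06 for Mt1 (0.997 to 1.12), 1.21 for Mt2 (1.12 to 1.31) and 1.10 for Mtf1 (1.00 to 1.20). These intervals cover counting error only. None of the 4 genes passed 1.5-fold, as 1.2% of 11096 nuclear protein-coding genes with a mean of at least 5 CPM did (133 genes), and none passed 2-fold, as 0.234% did (26 genes). Mt2 stood out most, its absolute log2 ratio being larger than that of 90.8% of those genes. Mt1 and Mt3 sat near the middle at percentiles 46.9 and 46.5.

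In the FASTQ-based counts the order of the libraries turned round for Mt3, and for Mt2 with an interval that included 1. Mt3 had 85.1 CPM in replicate 1 and 104 CPM in replicate 2, a ratio of 0.820 (exact 95% interval 0.778 to 0.864), against 115 CPM and 109 CPM alignment-based. The absolute log2 ratio of Mt3 was then above that of 91.6% of genes. Mt2 had 28.9 CPM and 31.3 CPM, a ratio of 0.923 (0.840 to 1.01), against 47.1 CPM and 39.0 CPM alignment-based. Mt1, at 1.01 (0.948 to 1.08), and Mtf1, at 1.11 (1.02 to 1.21), kept the direction of the alignment-based ratio, although for Mt1 the interval included 1 in both tables. The direction of the Mt3 ratio therefore depended on the quantification. For Mt2 the FASTQ-based counts gave no order beyond counting error, while the alignment-based ones were higher in replicate 1.

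**Figure D2:**
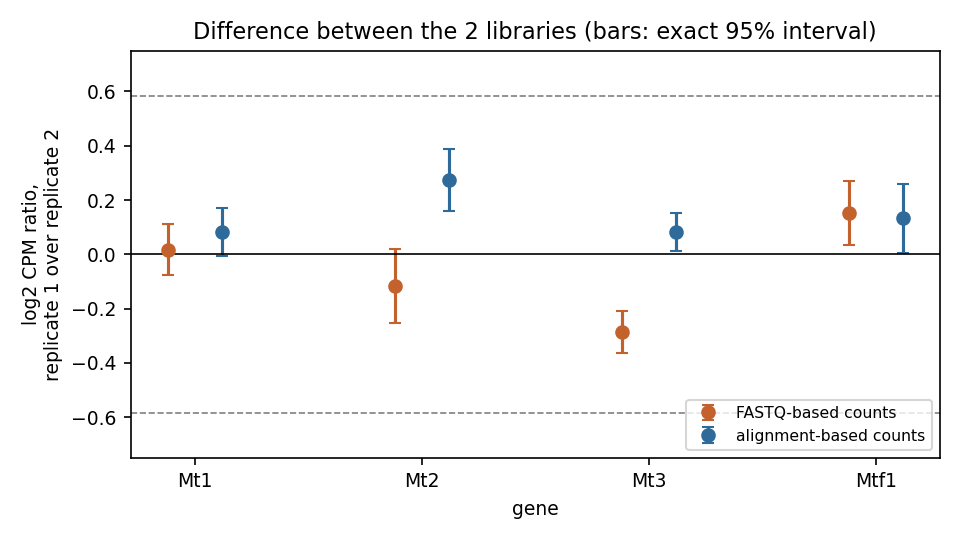
The log2 CPM ratio of replicate 1 over replicate 2 for each gene, FASTQ-based to the left of alignment-based, with bars for the exact 95% interval of counting error and dashed lines at 1.5-fold. The points of Mt3 and Mt2 lie below 0 in the FASTQ-based counts and above 0 in the alignment-based ones, and no point reaches a dashed line.

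Short transcripts received fewer counts in the FASTQ-based tables. Mt1 had 1926 FASTQ-based counts against 2356 alignment-based ones in replicate 1 (81.7%) and 1730 against 1956 in replicate 2 (88.4%). Mt2 had 899 against 1461 (61.5%) and 886 against 1063 (83.3%). Mt3 had 2647 against 3571 (74.1%) and 2935 against 2966 (99.0%). The long Mtf1 went the other way, with 1282 against 1134 (113%) and 1049 against 909 (115%). None of the 4 genes was lower by over 1.5-fold in both libraries, though Mt2 was in replicate 1 (61.5%). Of 11091 protein-coding genes of all lengths, 0.739% were lower by over 1.5-fold in both, a share that was larger among short genes, as given below. None of the 4 was higher by over 1.5-fold in both libraries, where 0.694% of those genes were.

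With length taken from the alignment-based tables, the metallothioneins lay near the median of genes of their own length. Among 60 genes of at least 350 and under 500 nt, the class of Mt2, the median FASTQ-based over alignment-based count was 0.639 in replicate 1 and 0.806 in replicate 2. Among 174 genes of at least 500 and under 700 nt, the class of Mt1 and Mt3, it was 0.828 and 0.891. It was 0.936 and 0.975 from 700 nt, 1.01 and 1.04 from 1000 nt, and 1.07 and 1.09 from 2000 nt, the class of Mtf1. Mt1 was at percentile 48.3 of its class in both libraries, Mt2 at 48.3 in replicate 1 and 51.7 in replicate 2, and Mt3 at 37.9 and 63.2. FASTQ-based counts lower by over 1.5-fold in both libraries were common at these lengths. They were found for 41.7% of genes in the class of Mt2 (25 genes) and 11.5% in that of Mt1 and Mt3 (20 genes). The class of Mt2 rests on its alignment-based mean length of 452 nt. That length counts the 388 nt transcript Mt2-202, which had 0 FASTQ-based counts. Mt2-201 alone, of 511 nt, would fall in the class of Mt1 and Mt3. There the Mt2 ratios, 0.615 and 0.833 in replicates 1 and 2, would lie below both medians, 0.828 and 0.891.

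**Figure D3:**
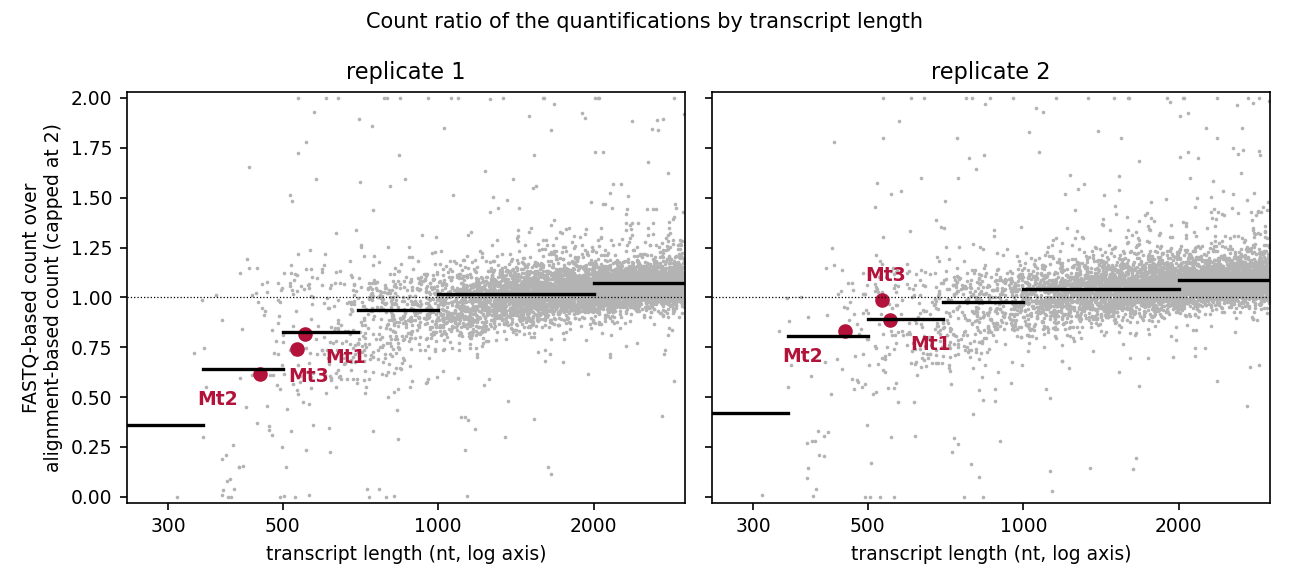
The count ratio of the FASTQ-based over the alignment-based table against transcript length (nt, log axis) for protein-coding genes with a mean of at least 5 CPM (grey), with Mt1, Mt2 and Mt3 in red, the median of each length class as a black bar, and 1 panel per library. The class medians climb with length, and Mt3 lies below its class median in replicate 1 and above it in replicate 2.

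With Mt2 classed by its alignment-based length, Mt3 differed most between the libraries relative to genes of its length. Its count ratio in replicate 1 was 0.749 of that in replicate 2, lower than in all but 4 of 171 genes of its class with a value, where the median was 0.934. The corresponding quotient was 0.738 for Mt2, at percentile 30.5 of its class (median 0.885), and 0.924 for Mt1, at percentile 43.9. In the class of Mt3, where Mt2-201 alone would fall, the quotient of Mt2 would be lower still than that of Mt3. Effective lengths, the span over which a read can start, moved too. The median effective length implied a fragment of 378.5 nt in replicate 1 and 342 nt in replicate 2 in the FASTQ-based tables, and of 100 nt in both in the alignment-based ones. Mt1-201 was accordingly given an effective length of 192.61 nt and 211.64 nt (35.1% and 38.6% of its length) FASTQ-based, and of 450 nt (82.0%) alignment-based. The part of fragment length in these ratios was not tested.

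Fewer counts on a shorter effective length still gave higher TPM. The median protein-coding gene had 1.54 times as much FASTQ-based as alignment-based TPM in replicate 1 and 1.51 times in replicate 2. Relative to that median, Mt1 was higher in the FASTQ-based tables by 1.59-fold in replicate 1 and 1.54-fold in replicate 2, and Mt3 by 1.49-fold and 1.78-fold. Mt2 was higher by 1.09-fold and 1.36-fold, and Mtf1 by 1.27-fold and 1.04-fold.

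Genes of similar length and count show that the deficit was not shared evenly. Near Mt3 in count and length, Dynll1, a dynein light chain, kept 97.0% of its count in replicate 1 and 97.9% in replicate 2, and cholecystokinin (Cck), a neuropeptide, 98.2% and 99.5%. Cox6a1, a subunit of cytochrome c oxidase, kept 62.1% and 82.5%, a quotient of 0.753 that is close to that of Mt3. Near Mt1, the ribosomal fusion gene Fau kept 107% in both libraries and Tmsb10, thymosin beta 10, 96.7% and 96.0%. Hba-a1, an alpha globin with a near-identical copy and so uncertain, had 111% and 139%.

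Isoforms separated Mt2 from its neighbours. Mt1-201 held 99.2% and 99.7% of the gene's FASTQ-based TPM in replicates 1 and 2 and 99.1% of the alignment-based TPM in both. Mt3-201 held 95.7% and 97.0% FASTQ-based, and 96.7% and 96.2% alignment-based. For Mt2 the FASTQ-based tables put all counts on Mt2-201 and 0 on the 388 nt Mt2-202. The alignment-based tables gave Mt2-202 578 counts in replicate 1 and 417 in replicate 2, or 48.3% and 47.9% of the gene's TPM.

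Mt2-202 starts within the first exon of Mt2-201 and uses a different end of that exon, so 92 of its 358 stretches of 31 bases are found in no other Mt2 transcript. Counts of Mt2-201 alone were 899 FASTQ-based against 883 alignment-based in replicate 1, and 886 against 646 in replicate 2. In replicate 1 the gene's deficit of FASTQ-based counts was thus close to the alignment-based count of Mt2-202, while in replicate 2 it was smaller than that count.

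Mtf1 was divided among more transcripts. Mtf1-202 held 40.3% and 47.4% of FASTQ-based TPM in replicates 1 and 2 and 47.6% and 39.5% of alignment-based TPM. Mtf1-204, a 781 nt transcript with a retained intron, held 13.1% and 23.1% FASTQ-based but 42.3% and 43.7% alignment-based, on no more than 77.8 and 66.0 alignment-based counts. Mtf1-203, of 636 nt, held 39.2% and 21.7% FASTQ-based on 42.3 and 18.0 counts, but 0% and 0.24% alignment-based. Short transcripts with few counts thus carried a large part of the TPM of Mtf1 in both quantifications, and a different one in each.

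**Figure D4:**
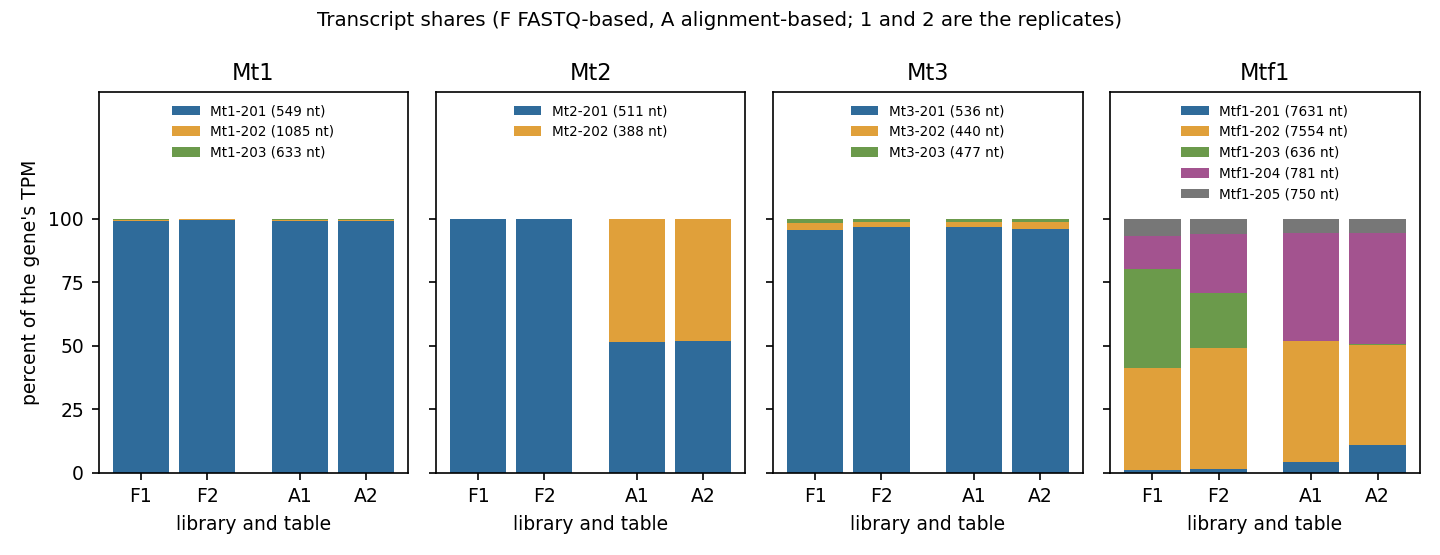
Share of each gene's TPM (percent) held by each annotated transcript, with FASTQ-based bars (F1 and F2 for replicates 1 and 2) left of alignment-based bars (A1 and A2). Mt1 and Mt3 are nearly all 1 transcript in each bar, Mt2-202 takes 48.3% and 47.9% in the alignment-based bars alone, and the split of Mtf1 changes from bar to bar.

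Genes nearest in level give a sense of scale. By distance over log2(TPM + 1) in both libraries and both quantifications, the nearest to Mt3 were Ptms, which encodes parathymosin, the chaperone Hsp90aa1 and Arpp21. Nearest to Mt1 were Ndrg3, Pcp4, a calmodulin-binding peptide, and Atp6v1e1, a subunit of the vacuolar proton pump. Mt2 lay nearest to Atp5o, a subunit of ATP synthase, somatostatin (Sst) and the ubiquitin fusion gene Rps27a. Crkl, an adaptor protein, Gtf2h4, a subunit of transcription factor TFIIH, and Otulinl were nearest to Mtf1. With 2 libraries of 1 tissue this is nearness of level only.

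Zinc transporters move the metal that metallothioneins bind. Of 10 zinc exporters of the Slc30a family, 8 were detected, led by Slc30a9 (85.7 ± 1.21 TPM, alignment-based, SD, n = 2) and Slc30a3 (67.6 ± 5.09), which loads zinc into synaptic vesicles. Slc30a2 had 0 counts in both libraries, which allows up to 3 in each. Of 14 zinc importers of the Slc39a family, 12 were detected, led by Slc39a10 (90.5 ± 3.46) and Slc39a7 (43.4 ± 0.530). None of the 8 exporters and 10 importers with at least 5 CPM passed 1.5-fold between the libraries, a count near the 1.2% of all genes. Their median ratio of replicate 1 over replicate 2 was 1.02 for exporters and 1.04 for importers, beside a median log2 ratio of 0.02 over all 11096 genes.

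Other genes tied to metals and stress were read against the same 1.2%, which for lists of this size leaves counts of 0 uninformative. Of 7 genes reported as MTF-1 dependent in mouse cells, 6 were detected, led by Csrp1 (93.4 ± 5.20 TPM) and Slc39a10, and none of 6 passed 1.5-fold. Slc30a1, the plasma membrane zinc exporter and a classical target of MTF-1, had 16.08 TPM in replicate 1 and 16.11 TPM in replicate 2. Its 300-base promoter window held 2 cores, where 7.11% of all such windows held at least 2. None of 9 copper-handling genes passed 1.5-fold (median ratio 1.11), among them Sod1 (161 ± 11.9 TPM), a copper-zinc superoxide dismutase, and the copper chaperone Cox17 (50.3 ± 4.57). None of 12 glutathione and oxidative stress genes passed it (median ratio 1.01), with Gpx4 (224 ± 5.33 TPM) and Prdx1 (71.4 ± 1.98) the highest.

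Of the 6 lists tied to metals, stress and glucocorticoids, the glucocorticoid-responsive one alone held genes past 1.5-fold. Of 10 genes, 3 were past 1.5-fold higher in replicate 1 and none lower, where 1.2% of all genes were past that fold in either direction, and the median ratio was 1.12. Tsc22d3, which encodes the glucocorticoid-induced leucine zipper, had 58.6 TPM in replicate 1 and 40.9 TPM in replicate 2, a CPM ratio of 1.52 (exact 95% interval 1.42 to 1.63). Fkbp5, a chaperone of the glucocorticoid receptor, had 23.2 TPM and 14.1 TPM, a ratio of 1.59 (1.46 to 1.74). Sult1a1, a sulfotransferase, had 8.42 TPM and 5.41 TPM, a ratio of 1.65 (1.30 to 2.11). Per1, the clock gene, had 47.0 TPM and 41.05 TPM, a ratio of 1.11 (1.05 to 1.17). Of the 10 genes, 8 were higher in replicate 1 by any margin and 2 were lower. The lower ones were Nr3c1, at a ratio of 0.910 (0.868 to 0.955), and Sgk1, at 0.943 (0.869 to 1.02). The list was chosen with earlier results of these data known.

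**Figure D5:**
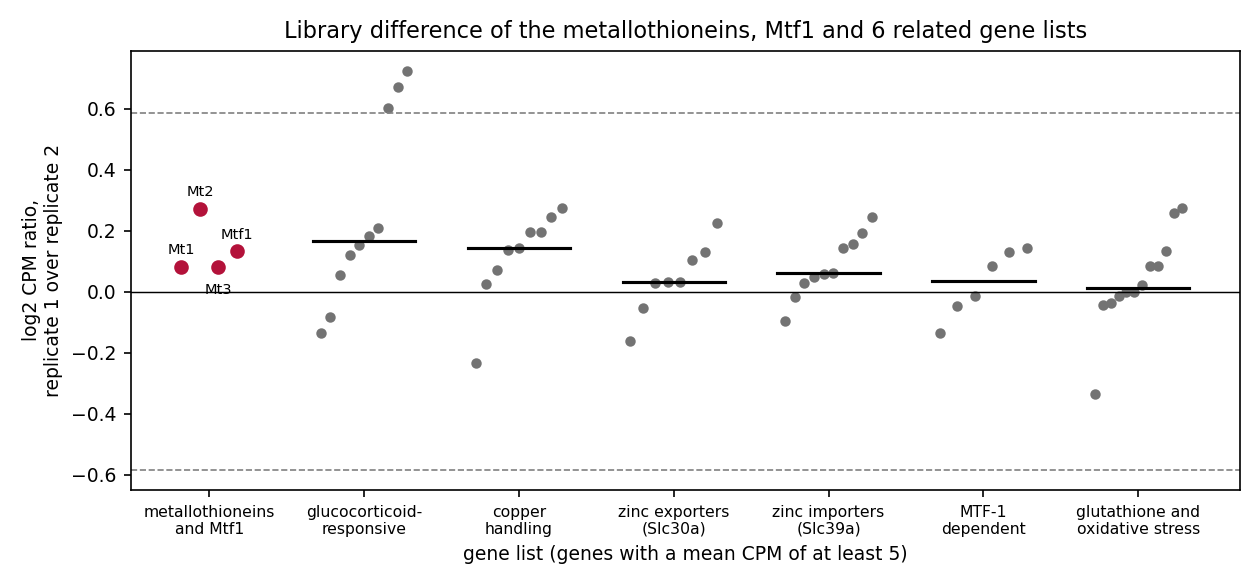
The alignment-based log2 CPM ratio of replicate 1 over replicate 2 for Mt1, Mt2, Mt3 and Mtf1 (red) and for genes with a mean of at least 5 CPM in 6 related lists (grey, with the median as a bar), dashed lines marking 1.5-fold. The only points past a dashed line are the 3 glucocorticoid-responsive genes Tsc22d3, Fkbp5 and Sult1a1.

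Cell types that hold metallothionein RNA were compared between the libraries in the same way. The 10 astrocyte markers summed to 1716 TPM in replicate 1 and 1793 TPM in replicate 2. Of this, Slc1a2 gave 886 and 994, and the other 9 together summed to 830 and 799, with single genes in both directions. By CPM ratio, 7 of the 10 were higher in replicate 1 and 3 were lower. None of the 10 passed 1.5-fold, and their median alignment-based CPM ratio was 1.05. For Mt1 and Mt3 the ratio was 1.06 each in the alignment-based counts, and 1.01 and 0.820 in the FASTQ-based ones. The alignment-based median was 1.00 for the 8 neuronal markers and 1.04 for the zinc importers. Meningeal fibroblast markers, 6 of 7 detected, summed to 83.9 TPM and 73.3 TPM, of which Igf2 gave 45.2 and 32.8, and endothelial markers, 7 of 7, to 140 TPM and 131 TPM. The part of the choroid plexus, erythroid and myelin differences in the ratio of Mt2 was not tested.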

How the data were processed

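Per the file headers and the labels, the authors deposited, for each library, alignment-based gene and transcript tables with expected counts, TPM and FPKM on mm10 and GENCODE M21, in which isoform shares are given as percent of the gene by the authors, and a FASTQ-based transcript table with estimated counts and TPM. No source used here names the aligner or quantifier. The deposited FPKM values were read and not compared.

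Symbols were linked to gene identifiers through the transcript tables, and FASTQ-based values were summed per gene. Counts were rounded and scaled by TMM (edgeR 4.0.16, genes with a mean CPM of at least 1) or, as an alternative, by DESeq2 1.42.0 size factors (R 4.3.3), a step tested on simulated data. Count ratios carry exact binomial intervals. Between-library shares use nuclear protein-coding genes with a mean CPM of at least 5, detection means at least 1 TPM in each library, and no test was run. Entries that name no gene, 6.39e-06% and 1.81e-05% of expected counts in replicates 1 and 2, and spike-ins stayed out of library sizes.

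The members and lists were chosen with earlier results of these data known. Beside the 4 members and Mt4, named genes are the 2 highest of each list by mean TPM, any at 0 counts in both libraries, any past 1.5-fold, the 3 nearest to each member in level and the 3 of like length nearest to Mt1 and Mt3 in count. Slc30a1 is named as a classical target outside that rule, chosen after its values were seen. Nr3c1 and Sgk1 are also named outside it, as the glucocorticoid-responsive genes that were lower in replicate 1.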

Additional observations from a re-analysis of the deposited data

How the results depend on the processing

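The log2 ratios of Mt3 over Mt1, Mt3 over Mt2, Mt1 over Mt2 and Mt1 over Mtf1 stayed above 0 under every alternative tried, Mt2 over Mtf1 was not among them, and leaving out 1 library gave log2 ratios of 0.66 to 0.66 (Mt3 over Mt1), 0.99 to 1.18 (Mt3 over Mt2), 0.33 to 0.52 (Mt1 over Mt2) and 4.27 to 4.29 (Mt1 over Mtf1). FASTQ-based TPM moved these 4 log2 ratios to 0.72, 1.51, 0.79 and 4.73, and CPM with no length correction to 0.60, 1.38, 0.78 and 1.08. A pseudocount of 1 moved Mt3 over Mt1 to 0.66 and Mt1 over Mtf1 to 4.18, and counts per kb of full annotated length, an alternative chosen after seeing the data, moved them to 0.65 and 4.03.

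Between the libraries, FASTQ-based estimated counts reversed the log2 CPM ratio of Mt2 (0.27 alignment-based) to -0.12 and of Mt3 (0.08) to -0.29. The FASTQ-based counting interval of Mt2 ran from -0.25 to 0.02. Scaling by ERCC totals moved Mt1 and Mt3 to 0.17 each, and the other scalings, the deposited TPM and the pseudocount left each member's ratio inside its counting interval. The log2 count ratio of FASTQ-based over alignment-based tables ranged over -0.29 to -0.18 (Mt1), -0.70 to -0.26 (Mt2), -0.43 to -0.02 (Mt3) and 0.18 to 0.21 (Mtf1) without either library. It reversed in TPM to 1.26, 0.89 and 1.31 for Mt1, Mt2 and Mt3. Effective lengths differ between the tables, and the median gene also had 1.54 and 1.51 times as much FASTQ-based as alignment-based TPM in replicates 1 and 2. The part of each in the reversal was not tested. For Mtf1 the log2 count ratio was 0.16 in CPM on unadjusted library totals and 0.81 in TPM.

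Genes past 1.5-fold between the libraries numbered 428 at a mean CPM of at least 1 and 1836 with any count in both, against 133; those past 2-fold numbered 93, 868 and, by FASTQ-based counts, 41, against 26. Genes past 1.5-fold between the quantifications numbered 349 at a mean CPM of at least 1, against 159, and 193 to 215 without either library. Of 80 recomputed values, 53 stayed within the replicate spread, counting interval or 1.5-fold margin of the value reported. Part of these 53 was fixed in advance. For ratios between genes and between quantifications, leaving out 1 of 2 libraries always stays within the SD, so those values show no robustness. No paired analysis was possible because both libraries belong to 1 group. With 2 libraries no difference here has a test, and intervals cover counting error only.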
